A study of Mus musculus with 10 samples.

Results

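Mt1 and Mt2, the metallothionein genes measured in every plate, were followed across single cells and small cell clusters from mouse small intestinal crypts. The rows were taken by gene symbol, 2 of 18022 genes listed in the series, and both passed the filter on low values in the plate sums. The pair was chosen with its differences between groups of plates already known, so its own levels are given as a description with standard errors and without tests, and tests were run only on other genes. The series holds 10 plates of CEL-seq2, which primes on the poly(A) tail and counts molecules by random barcodes, from C57Bl/6 mice. Mildly dissociated crypts gave 3 plates of hand-picked doublets or triplets of cells (JC68, JC71 and JC72, here picked JC replicates 1 to 3). Fully dissociated crypts gave sorted single cells, in 5 plates with the code GK5a (M2-1 to M2-5) and 2 plates with the code GK5b (G and L). No genotype, treatment or age is given, and the labels do not tie plates to animals, so the spread between plates may be technical, and picking, code and animal cannot be told apart.

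Wells with at least 1000 endogenous transcripts were used, 501 picked JC wells, 1090 sorted GK5a wells and 525 sorted GK5b wells, 2116 in all. A plate held 821829 to 4832581 transcripts in its used wells, and the median well held 2756 to 7235 transcripts in picked JC plates, 3361 to 7871 in sorted GK5a plates and 13944 to 16427 in sorted GK5b plates. Crypt epithelial markers were present in every group: summed stem cell markers took 0.0402 to 0.0722% of transcripts in picked JC plates, 0.117 to 0.154% in sorted GK5a plates and 0.0779 to 0.136% in sorted GK5b plates. Summed goblet cell markers took 0.930 to 2.10%, 1.05 to 1.81% and 3.83 to 6.13% in picked JC, sorted GK5a and sorted GK5b plates, and summed Paneth cell markers 0.684 to 8.20%, 0.329 to 1.01% and 0.263 to 0.447%. Immune, stromal and erythroid markers each stayed at or under 0.0205% of transcripts in any plate. Xist, which is made from the inactive X chromosome of female cells, was at 115 to 155 transcripts per 1000000 transcripts (CPM) in picked JC plates and at 0 to 0.978 CPM in sorted plates, while the Y-linked Ddx3y was at 0 CPM in picked JC plates and 60.7 to 100 CPM in sorted plates. The sex of the animals therefore moves with picking in these data, and its part in any difference between picked and sorted plates was not tested.

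Metallothioneins are very small, cysteine-rich proteins that bind zinc and copper in clusters and buffer the free metal in the cytosol. Their genes are switched on by the zinc-sensing factor MTF1, which binds metal response elements in their promoters, and also by glucocorticoids and oxidative stress. In the gut they are known from the absorptive epithelium, where they bind incoming dietary zinc, and from Paneth cells, which store zinc in their granules.

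Mt1 (ENSMUSG00000031765.8) and Mt2 (ENSMUSG00000031762.7) lie on the plus strand of chromosome 8 in the GRCm38 (mm10) build, Mt2 at chr8:94172664-94173568 and Mt1 at chr8:94179082-94180327, with 5513 bases between them. Mt3 and Mt4 lie upstream in the same cluster. Mt3 was listed in the picked JC and sorted GK5b plates and Mt4 in 2 sorted GK5a plates, and neither passed the filter on low values. The main transcript of Mt1 and of Mt2 has 3 exons. Both coding sequences have 61 codons, of which 20 encode cysteine, at the same 20 places, and they are identical at 145 of 183 bases (79.2%). They are shown because the metal-binding cysteines are what the pair shares; the capitals mark the in-frame cysteine codons, and the sequences are from the GENCODE transcripts, 5′ to 3′ without the stop codon.
Mt1 coding sequence: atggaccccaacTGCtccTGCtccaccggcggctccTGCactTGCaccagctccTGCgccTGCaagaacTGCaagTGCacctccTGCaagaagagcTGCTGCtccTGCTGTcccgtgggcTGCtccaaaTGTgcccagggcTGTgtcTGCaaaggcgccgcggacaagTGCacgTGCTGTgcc
Mt2 coding sequence: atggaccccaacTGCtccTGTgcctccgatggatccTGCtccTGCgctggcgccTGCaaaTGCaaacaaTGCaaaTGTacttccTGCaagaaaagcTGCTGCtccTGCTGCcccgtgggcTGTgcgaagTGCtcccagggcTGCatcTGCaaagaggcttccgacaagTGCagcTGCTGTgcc
The whole transcripts share no stretch of 30 bases. The longest run they share has 20 bases, and in the last 200 bases, where poly(A)-primed counting reads, the longest has 12 bases.

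The promoter windows, from 250 bases before to 50 after the RefSeq start on GRCm38.p6, are shown because metal response elements are the textbook route from zinc to these genes. The core letters TGCACNC and TGCGCNC were searched on both strands, and matches are in capitals. The window of Mt1 (chr8:94178839-94179138, plus strand) held 3 matches and that of Mt2 (chr8:94172368-94172667, plus strand) held 4, with no overlap between matches. Counted from the start used, the matches began at bases -23, 2 and 20 in Mt1 and at -223, -128, -50 and 4 in Mt2. Some of them therefore lie after that start.
Mt1 promoter: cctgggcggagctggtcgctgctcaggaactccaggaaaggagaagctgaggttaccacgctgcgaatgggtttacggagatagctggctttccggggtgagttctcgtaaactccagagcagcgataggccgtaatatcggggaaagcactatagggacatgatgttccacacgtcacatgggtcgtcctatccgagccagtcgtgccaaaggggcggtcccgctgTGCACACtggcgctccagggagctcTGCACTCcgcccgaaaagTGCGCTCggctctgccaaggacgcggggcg
Mt2 promoter: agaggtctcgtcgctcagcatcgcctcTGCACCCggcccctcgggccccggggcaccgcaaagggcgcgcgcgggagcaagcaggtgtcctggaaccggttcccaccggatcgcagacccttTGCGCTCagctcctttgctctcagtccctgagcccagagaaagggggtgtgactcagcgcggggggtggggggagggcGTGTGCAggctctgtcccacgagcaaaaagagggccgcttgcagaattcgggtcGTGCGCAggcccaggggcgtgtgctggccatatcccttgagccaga
Of 32851 promoter windows of the same length, 25.7% held at least 1 match, 1.97% held 3 or more and 0.52% held 4 or more. The window of Slc30a1, the zinc exporter of the plasma membrane, held 2 matches and that of Mtf1 itself held none of these letters. Slc30a4 and Slc30a10 held 3 matches each, as many as Mt1. A match is a match of letters and does not show binding.

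Mt2 was low in the picked wells, while the mean of Mt1 in picked plates lay between the means of the sorted codes. Over the summed wells of a plate, Mt2 was at 16.2, 29.2 and 36.1 CPM in picked JC plates, against 264, 281, 287, 273 and 287 CPM in sorted GK5a plates and 70.4 and 101 CPM in sorted GK5b plates. The 3 groups did not overlap: each picked JC plate was lowest, each sorted GK5a plate highest, and the sorted GK5a plates lay within 264 to 287 CPM of each other. The picked values rest on 20, 24 and 42 transcripts of Mt2, against 270 to 678 per sorted GK5a plate and 340 and 447 in the sorted GK5b plates. Mt1 was at 283, 280 and 261 CPM in picked JC plates, against 312, 517, 500, 332 and 506 CPM in sorted GK5a plates and 186 and 247 CPM in sorted GK5b plates. In these unscaled values every picked JC plate lay below every sorted GK5a plate and above every sorted GK5b plate for Mt1. The sorted GK5a plates fell into a lower pair (replicates 1 and 4) and a higher 3. After trimmed-mean scaling Mt1 was at 361, 301 and 278 CPM in picked JC plates. That overlapped sorted GK5a replicates 1 and 4, at 285 and 315 CPM, so the separation from GK5a depends on the scaling. A plate sum cannot tell fewer cells with the gene from less RNA per cell.

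On the log2 scale after trimmed-mean scaling, Mt2 was lower in picked JC plates by a log2 difference of -3.11 ± 0.18 (SE, n = 3 and 5) against sorted GK5a and -1.48 ± 0.22 (n = 3 and 2) against sorted GK5b. The median of all 10779 genes tested was -0.14 and -0.13 in these comparisons, and 19.5% and 29.9% of genes had every picked plate below every plate of the other group (against GK5b, 19.8% had every picked plate above, so 49.7% were apart in either direction). Mt1 differed by -0.34 ± 0.19 between picked JC and sorted GK5a plates and by 0.55 ± 0.24 between picked JC and sorted GK5b plates. Between the sorted codes both genes were higher in GK5a, Mt1 by 0.89 ± 0.22 and Mt2 by 1.63 ± 0.21 (n = 5 and 2), where the median of all genes was -0.03 and 14.0% of genes had every GK5a plate above every GK5b plate and 18.7% every GK5a plate below. The comparisons share plates and are not independent of each other.

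**Figure D1:**
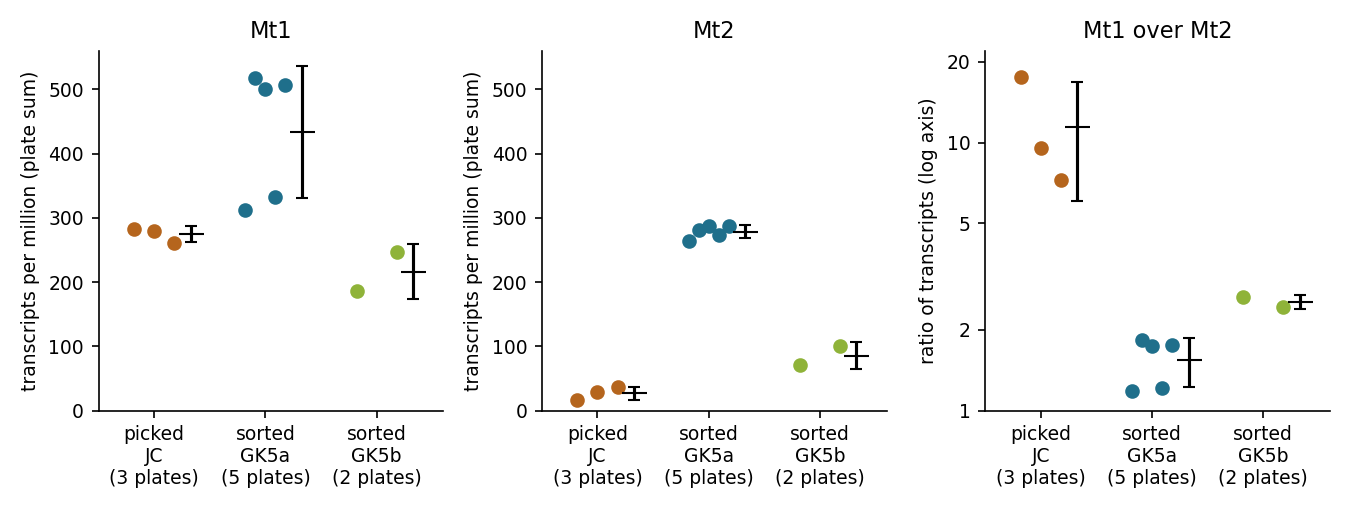
Mt1 and Mt2 in CPM of the plate sum (left and middle, vertical axes from 0) and their ratio (right, log axis), with 1 point per plate and the mean ± SD beside the points. Mt2 sits at 16.2 to 36.1 CPM in picked JC plates and 264 to 287 CPM in sorted GK5a plates, while Mt1 spans 261 to 283 CPM and 312 to 517 CPM in them.

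The balance of the pair therefore differed between groups. Mt1 made up 91.0 ± 3.37% of the pair's transcripts in picked JC plates (SD, n = 3), against 60.3 ± 5.24% in sorted GK5a plates (n = 5) and 71.8 ± 1.13% in sorted GK5b plates (n = 2). The ratio of Mt1 to Mt2 was 17.5, 9.58 and 7.24 in picked JC plates, against 1.18 to 1.84 in sorted GK5a plates and 2.65 and 2.44 in sorted GK5b plates. The ranges of the 3 groups did not overlap. A ratio within a plate does not depend on the scaling between plates, and it shows unequal levels of the pair, not which gene differed.

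The same pattern was seen at equal depth. With each well thinned to 2000 transcripts, and shallower wells left out (118 of 501 picked JC, 160 of 1090 sorted GK5a and 21 of 525 sorted GK5b wells), Mt2 was found in 4.67, 5.79 and 7.10% of picked JC wells, against 24.5 to 30.5% of sorted GK5a wells and 10.5% of wells in both sorted GK5b plates. Mt1 was found in 38.0 to 43.9% of thinned picked JC wells, against 38.2 to 47.4% in sorted GK5a plates and 27.3 and 31.5% in sorted GK5b plates. Before thinning Mt2 was found in 7.26 to 13.1% of picked JC wells, against 37.0 to 47.3% of sorted GK5a wells and 33.7 and 34.9% of sorted GK5b wells, so thinning changes the sorted GK5b share most. A picked well holds more than 1 cell and could carry the gene from any of them.

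A large part of the pair's transcripts lay in few wells. The 5% of wells with most Mt1 and Mt2 transcripts, not scaled to depth, held 25.2 to 31.5% of all of them in picked JC plates. The share was 32.7 to 50% in sorted GK5a plates and 35.8 and 40.2% in sorted GK5b plates. No other gene was set beside these shares, and the part of well depth and of counting error in them was not tested. The summed level of the pair was above 2500 CPM in no picked JC well, against 1.79 to 5.22% of wells in sorted GK5a plates and 0 and 0.383% in sorted GK5b plates. The highest well for Mt1 reached 4959 CPM from 53.3 transcripts, in sorted GK5a replicate 3. Wells with none of either gene made up 33.6 to 44.7% in picked JC plates, 24.3 to 40.2% in sorted GK5a plates and 28.8 and 28.4% in sorted GK5b plates, at unequal depths. The log level of the pair rose weakly with the depth of the well, with r between 0.13 and 0.42 within plates.

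**Figure D2:**
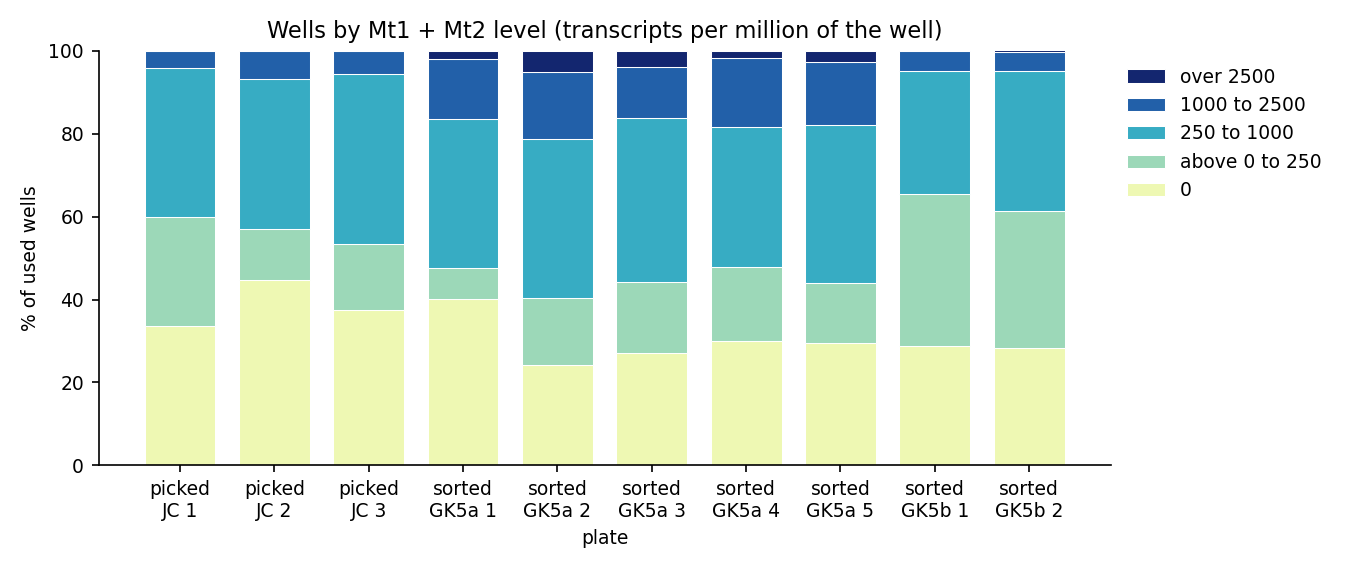
Share of used wells (vertical axis, % of the plate's used wells) by the summed Mt1 and Mt2 level of the well in CPM, for each of the 10 plates. Wells above 2500 CPM appear in all 5 sorted GK5a plates at 1.79 to 5.22% and in none of the picked JC plates.

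To ask which cells carried the pair, wells were put in classes by marker transcripts. Defa wells had at least 2% of transcripts from defensin genes of Paneth cells, Muc2 wells at least 0.1% from the mucin of goblet cells, and Apoa1 wells at least 0.1% from the apolipoprotein of enterocytes. A well past more than 1 of these was called mixed. The others were Lgr5 wells (1 or more transcript of the stem cell receptor), Mki67 wells (dividing, without Lgr5) or wells with none of the markers. These names stand for marker content and not for a tested cell identity, and a picked well's class belongs to all of its cells. The sorted codes differed in makeup: Muc2 wells were 219 of 1090 sorted GK5a wells and 396 of 525 sorted GK5b wells, against 104 of 501 picked JC wells. Apoa1 wells were 84 of the sorted GK5a wells, 1 of the sorted GK5b wells and 29 of the picked JC wells.

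In sorted GK5a plates Mt1 was broadly present. Its mean level over plates was 580 ± 159 CPM in wells with none of the markers (SD, n = 5), 497 ± 263 in Apoa1 wells, 439 ± 100 in Mki67 wells, 400 ± 130 in Lgr5 wells and 266 ± 107 in Muc2 wells (n = 5 each). Neighbours in the first 4 of this order lay within the spread of the plates. Mt2 followed another order, with 408 ± 81.5 CPM in wells with none of the markers, 352 ± 59.4 in Mki67 wells, 219 ± 75.8 in Lgr5 wells, 173 ± 88.7 in Apoa1 wells and 146 ± 70.1 in Muc2 wells. Here the step between Mki67 and Lgr5 wells was larger than the SD of either class, and the neighbours on either side of it lay within the spread. By plate, Mt2 was at 285, 459, 379, 496 and 423 CPM in wells with none of the markers, against 175, 156, 313, 161 and 289 CPM in Lgr5 wells of the same plates. It was higher in the wells with none of the markers in 5 of 5 plates, a pattern picked out after the values were seen. Splitting Lgr5 wells by Mki67 changed Mt2 little, at 210 ± 64.1 CPM with and 238 ± 111 CPM without Mki67.

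Set against Lgr5 wells of the same plate, Apoa1 wells had a mean log2 ratio of 0.16 (SD 0.71, 5 plates, 2 below 0) for Mt1 and -0.45 (SD 0.72, 4 of 5 below 0) for Mt2. Muc2 wells had -0.55 (SD 0.67, 6 of 7 plates below 0) for Mt1 and -0.50 (SD 0.88, 5 of 7 below 0) for Mt2. None of these 4 means was larger than its SD over plates, but they moved with the processing. With wells thinned to 2000 transcripts and put in classes again, the Mt1 ratio of Apoa1 wells was 1.00 (SD 0.76) and the Mt2 ratio of Muc2 wells 1.14 (SD 2.62). Few transcripts of Mt2 were left after thinning. It was found in 2.08% of the 48 sorted GK5b wells that were Lgr5 wells at full depth. The thinned Mt2 ratio of Muc2 wells therefore cannot show a direction. With class thresholds divided by 2, the Mt1 and Mt2 ratios of Apoa1 wells were 0.75 (SD 0.51) and 0.46 (SD 1.06). The direction for Mt2 was thus not stable in Apoa1 wells and not settled in Muc2 wells. Leaving out sorted GK5a replicate 2, whose Mt1 ratio for Apoa1 wells was 1.01, put the mean for Mt1 in Apoa1 wells at -0.06. In sorted GK5b plates, the Muc2 wells held Mt1 at 184 ± 13.4 CPM and Mt2 at 68.0 ± 4.67 CPM (n = 2), and the Lgr5 wells 251 ± 105 and 74.0 ± 2.40 CPM.

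Wells past the Defa threshold together with Muc2 or Apoa1 held little Mt2, and wells past the Defa threshold alone were too few (6 picked JC and 3 sorted GK5a wells) for a ratio over Lgr5 wells. The 6 picked JC wells held Mt1 at 227 CPM and Mt2 at 0 CPM when pooled (6 and 0 transcripts), and the 3 sorted GK5a wells 651 and 279 CPM (7 and 3 transcripts). Counting every well past it, whether or not Muc2 or Apoa1 was also past, a grouping chosen after the data were seen, Mt1 was at 113 ± 54.4 CPM in picked JC plates (n = 3, 33 wells), 127 ± 101 CPM in sorted GK5a plates (n = 4, 35 wells) and 24.9 CPM in the sorted GK5b plate with at least 5 such wells. Mt2 was at 3.9 ± 6.75, 34.1 ± 29.9 and 0 CPM in the same wells. Only 6 transcripts of Mt2 lie behind the sorted GK5a value and 1 behind the picked JC value. Most of these wells were also past Muc2 or Apoa1, and those alone had Mt1 at 98.2 ± 61.1 CPM and Mt2 at 18.2 ± 25.5 CPM in sorted GK5a plates (n = 4, 32 wells). Wells with the hormone-granule genes Chga or Chgb at 0.1% or more were also low, with Mt1 at 151 ± 99.6 CPM and Mt2 at 34.7 ± 66.7 CPM in sorted GK5a plates (n = 5, 37 wells). Wells with the tuft cell kinase Dclk1 at 0.05% or more had 86.9 ± 83.7 and 92.8 ± 88.9 CPM (n = 4, 30 wells).

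Mt2 was lower in picked JC than in sorted GK5a plates in each class with a mean in both groups. In picked JC plates Mt2 was at 36.8 ± 18.1 CPM in wells with none of the markers, 19.4 ± 10.3 in Mki67 wells, 28.7 ± 9.74 in Lgr5 wells and 58.8 ± 30 in Muc2 wells (n = 3 each). Each of these means was under that of the same class in sorted GK5a plates. Against sorted GK5b plates the Muc2 wells overlapped, at 26.0, 65.5 and 84.8 CPM in picked JC plates and 64.7 and 71.3 CPM in sorted GK5b plates, while the Lgr5 wells were at 22.6 to 39.9 CPM in picked JC plates and 72.3 and 75.7 CPM in sorted GK5b plates. The 29 picked Apoa1 wells held no Mt2 transcript, which allows up to 24.7 CPM (3 counts over the group). The pooled sorted GK5a Apoa1 wells held 185 CPM, 7.49 times that limit, but their plates ranged from 76.6 to 273 CPM. The limit covers counting error only and not the spread between plates. Mt1 in those picked wells was at 257 ± 89.1 CPM (n = 2). Over Lgr5, Mki67 and unmarked wells together, which leaves out the Muc2, Apoa1 and Defa wells that differ in number between groups, Mt2 was at 25.9 ± 4.01 CPM in picked JC plates, 320 ± 11.5 CPM in sorted GK5a plates and 122 ± 24.7 CPM in sorted GK5b plates, and Mt1 at 312 ± 38.0, 459 ± 88.7 and 288 ± 41.7 CPM.

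**Figure D3:**
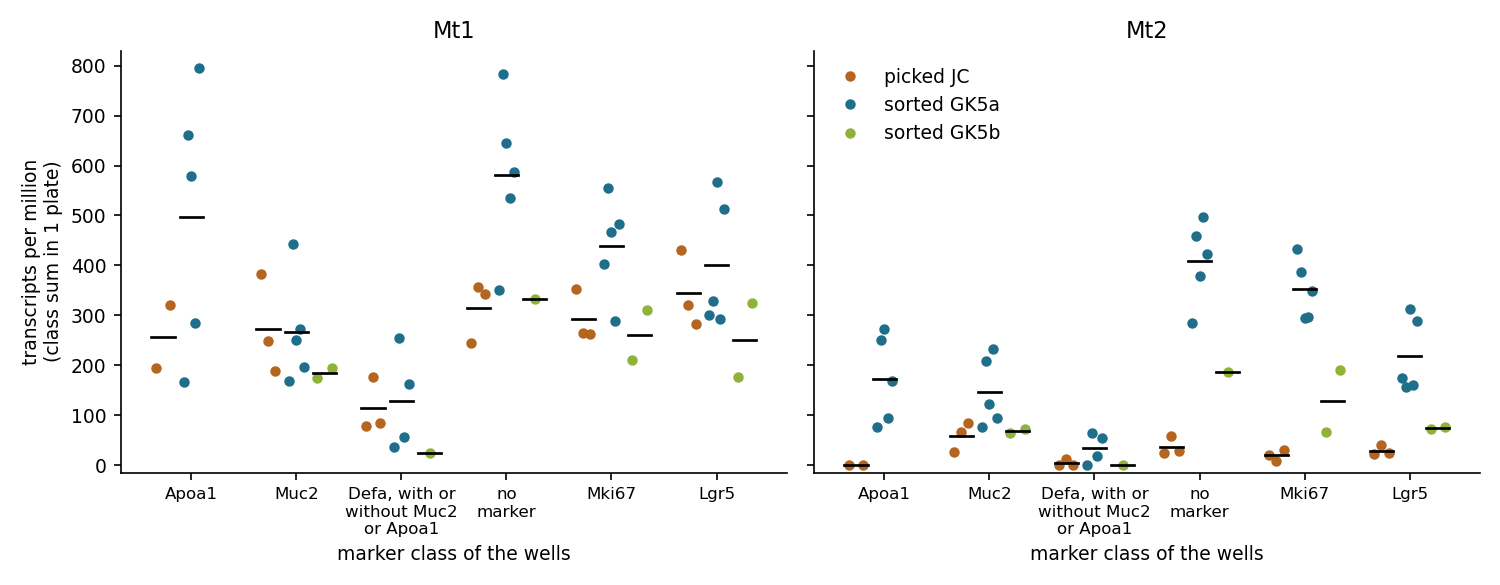
Mt1 (left) and Mt2 (right) in CPM of the summed wells of a class in 1 plate, for classes with at least 5 wells, with 1 point per plate, black lines at group means and colours for the 3 groups. Mt2 is under 90 CPM in every class of the picked JC plates, and overlaps between picked JC and sorted GK5b plates in Muc2 wells, at 26.0 to 84.8 and 64.7 to 71.3 CPM.

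At equal depth the classes kept part of this order. Here each well kept the class it had before thinning, so the Lgr5, Mki67 and unmarked classes still depend on the depth of the well. In sorted GK5a wells thinned to 2000 transcripts, Mt2 was found in 36.4% of wells with none of the markers, 36.2% of Mki67 wells, 22.6% of Lgr5 wells, 20.3% of Apoa1 wells and 19.5% of Muc2 wells. Mt1 was found in 51.0, 50.9, 42.7, 57.6 and 29.6% of them. Mixed wells, 32 of 39 of them past the Defa threshold, had Mt1 in 18.5% and Mt2 in 7.41% of wells after thinning (27 wells) and in 30.8 and 10.3% before (median depth 3721 transcripts), the lowest shares of a class with over 20 wells. No class is known to lack these genes, so the share that free RNA gives was not measured. Without thinning, wells with at least 2000 transcripts were ranked in each sorted GK5a plate by their summed Mt1 and Mt2 level. Of the top 5%, 46.0% had none of the markers and 28.0% were Mki67 wells, against 22.2 and 23.4% of the wells ranked. Muc2 wells were 2.00% of the top, against 18.2% of the wells ranked. This ranking is not at equal depth. The median sorted GK5a well held 4385 transcripts in unmarked, 10560 in Mki67 and 4447 in Muc2 wells.

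Mt1 and Mt2 rose and fell together from well to well, more weakly in picked JC plates at full depth. Within plates Pearson's r of log2(transcripts per 10000 + 1) was 0.22 to 0.35 in picked JC plates, 0.43 to 0.61 in sorted GK5a plates and 0.55 and 0.58 in sorted GK5b plates, with a mean of 0.46 over 10 plates. The wells of a plate share library and depth, and the mean fell to 0.27 with wells thinned to 2000 transcripts. After thinning, r was 0.12 to 0.25 in picked JC plates and 0.24 to 0.39 in sorted GK5a plates. In sorted GK5b plates it was 0.36 and 0.23, so the groups overlapped at equal depth. Picked JC plates held only 20, 24 and 42 transcripts of Mt2, and the part of such low counts in their lower r was not tested. Within classes of the sorted plates the mean r was 0.48 in Lgr5 wells (6 plates), 0.56 in Mki67 wells (6 plates), 0.49 in wells with none of the markers (5 plates) and 0.45 in Muc2 wells (7 plates). Within classes of the picked JC plates it was 0.36 in Mki67 wells (0.14 to 0.56, 3 plates) and 0.22 in Muc2 wells (-0.02 to 0.41, 3 plates). In picked wells with none of the markers it was 0.14 (-0.06 and 0.34, 2 plates). At equal depth both genes were found in 16.0 to 20.1% of wells of a sorted GK5a plate, and Mt2 without Mt1 in 14 to 23 wells a plate. A well of 2000 transcripts holds few molecules of either gene. Finding Mt2 alone thus does not show that a cell lacks Mt1, and the part of counting error was not tested.

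**Figure D4:**
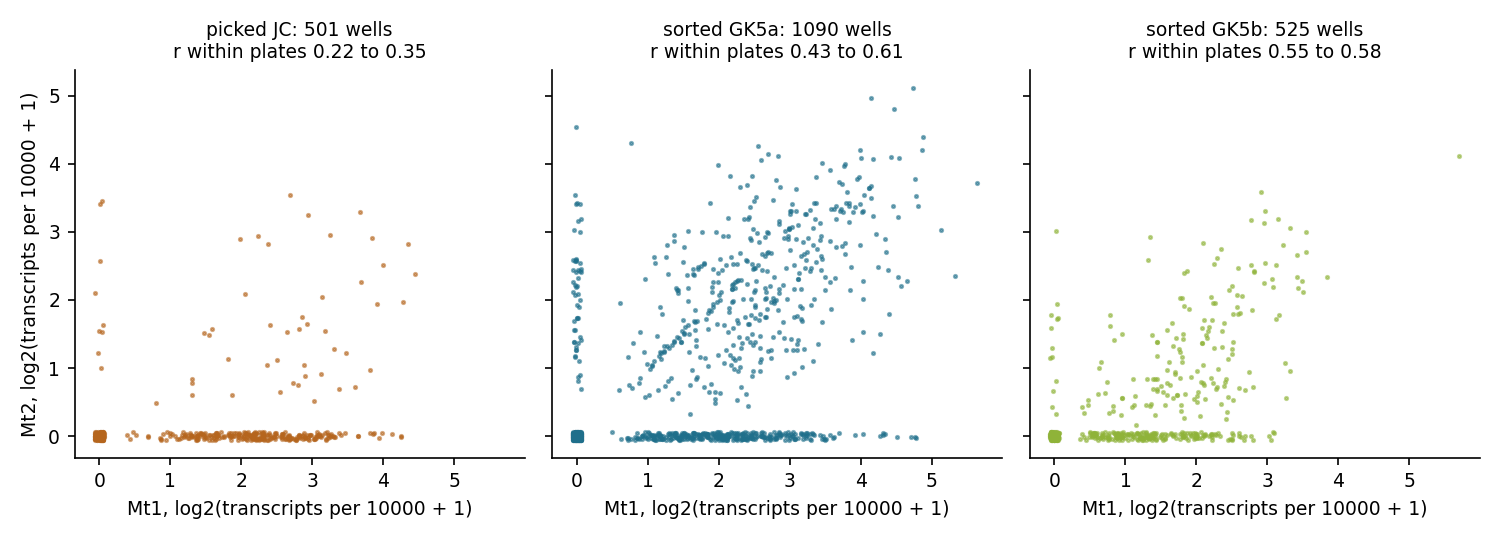
Mt1 against Mt2 in each used well, both axes in log2(transcripts per 10000 + 1) with a small random shift to separate points at 0, for 501 picked JC, 1090 sorted GK5a and 525 sorted GK5b wells. Mt2 is at 0 in most wells of picked JC and of sorted GK5a plates alike. It was found in 7.26 to 13.1% of wells in picked JC plates and 37.0 to 47.3% in sorted GK5a plates. Within sorted GK5a plates r was 0.43 to 0.61.

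Of 4225 genes with a transcript in at least 10% of the wells of every plate, those most like the summed pair across wells had a mean r near 0.3, where the median gene had 0.08. The 10 highest were Cox5b, Ccl25, Mgst1, Cox7b, Cox5a, Otc, Dbi, Oat, Dmbt1 and Atp5g3. Cox5b, Cox7b and Cox5a are subunits of cytochrome c oxidase and Atp5g3 of ATP synthase, Ccl25 is the chemokine of the small intestine, Otc and Oat are mitochondrial enzymes of ornithine metabolism, and Mgst1 is a membrane glutathione transferase. Cox5b had a mean r of 0.32, from 0.12 to 0.44 over the plates. The 5 lowest were Tff3 (-0.19), Malat1 (-0.18), Muc2 (-0.18), Spink4 (-0.17) and Selm (-0.16), of which Tff3, Muc2 and Spink4 are goblet cell genes. After thinning, 7 of the 10 highest and 2 of the 5 lowest kept their places in these sets, and the mean r of Cox5b was 0.16.

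Genes that handle zinc were tested beside the pair. The list of 27 zinc genes held the exporters and vesicle loaders of the Slc30 family, the importers of the Slc39 family, Mtf1 and the metallothioneins Mt3 and Mt4. It had 20 members that passed the filter, without Mt3 and Mt4. Between GK5a and GK5b plates 2 were higher and 3 lower in GK5a (25% of the list, against 7.38% of all 10779 genes, 3.32% higher and 4.06% lower, by limma with Benjamini-Hochberg adjusted p under 0.05), and the median log2 difference of the list was 0.01, against -0.03 over all genes. Slc30a1, which exports zinc from the cell and is a known MTF1 target, was at 32.7 ± 5.68 CPM in GK5a plates and 11.6 ± 1.67 CPM in GK5b plates (SD, n = 5 and 2), a log2 difference of 1.41 ± 0.31 (adjusted p = 0.0145 by limma). Slc39a4, the dietary zinc importer of the gut, was at 177 ± 25.4 CPM in GK5a plates and 93.1 ± 2.5 CPM in GK5b plates (0.91 ± 0.22, adjusted p = 0.0228). Mtf1, the zinc sensor, was at 21.6 ± 4.07 CPM in GK5a plates and 19.5 ± 1.4 CPM in GK5b plates and did not pass (0.13 ± 0.22, adjusted p = 0.832).

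The 3 lower genes in GK5a were Slc39a8 (log2 difference -1.61), an importer of zinc and manganese, Slc39a7 (-1.12), which releases zinc from the endoplasmic reticulum, and Slc30a7 (-0.71), which loads zinc into the secretory pathway. Among Lgr5, Mki67 and unmarked wells only, none of 18 tested passed in limma (3 at an unadjusted p under 0.05), with Slc30a1 at 0.87 (adjusted p = 0.466, the highest of 18 alternatives, from 0.0028) and Slc39a7 at -0.01 (adjusted p = 0.997, the highest, from 0.00191). Without GK5b replicate 1 none of 20 passed in limma (5 at an unadjusted p under 0.05), and without GK5b replicate 2 the count was 2, both lower in GK5a.

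In picked JC plates more members of the zinc list were lower than higher. Against sorted GK5a 8 were lower and 1 higher (45.0% of the list, against 35.7% of all genes called, 14.4% higher and 21.3% lower; median of the list -0.33), and against sorted GK5b again 8 lower and 1 higher (45.0%, against 25.4% of all genes, 9.91% higher and 15.4% lower; median of the list -0.64). Slc30a4 had the smallest adjusted p against GK5a, at 30.3 CPM in picked JC plates and 77.1 CPM in sorted GK5a plates (log2 difference -1.38 ± 0.20, adjusted p = 0.000236 by limma). Slc30a1 fell to 18 ± 8.98 CPM in picked JC plates, against 32.7 ± 5.68 CPM in sorted GK5a plates (-0.92 ± 0.27, adjusted p = 0.0184), and the call was lost among Lgr5, Mki67 and unmarked wells (-0.91, adjusted p = 0.0595, within 0.00172 to 0.0854 over 18 alternatives, the highest without picked JC replicate 2). Slc30a5, which works with Slc30a6 in the early secretory pathway, was at -1.0 (adjusted p = 0.00149) and Slc39a9, a Golgi transporter, at -0.90 (adjusted p = 0.00185). Slc39a7 was the higher member, at 62.5 CPM in picked JC plates and 41.5 CPM in sorted GK5a plates (0.57, adjusted p = 0.0181). When plates were scaled by their library totals, the counts were 10 lower and 0 higher, and with median of ratios 7 lower and 2 higher. Against GK5b, Slc30a7 (-1.28, adjusted p = 0.000355), Slc30a4 (-1.40), Slc39a8 (-1.40) and Slc39a5 (1.47, adjusted p = 0.0116), a basolateral zinc carrier, had the smallest adjusted p. Among Lgr5, Mki67 and unmarked wells the calls of Slc30a7 (-0.38, adjusted p = 0.276), Slc39a8 (-0.70, adjusted p = 0.214) and Slc39a5 (0.86, adjusted p = 0.0943) were lost, and 2 of 18 tested members were lower and none higher. Over all wells the counts against GK5b were 10 lower and 1 higher with library totals, 6 lower and 3 higher with median of ratios, 2 lower without GK5b replicate 1 and 5 lower with 1 higher without GK5b replicate 2. Slc39a4 did not pass against GK5a (-0.24, adjusted p = 0.338) or GK5b (0.66, adjusted p = 0.0582), nor did Mtf1 (0.38, adjusted p = 0.147, and 0.50, adjusted p = 0.151).

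**Figure D5:**
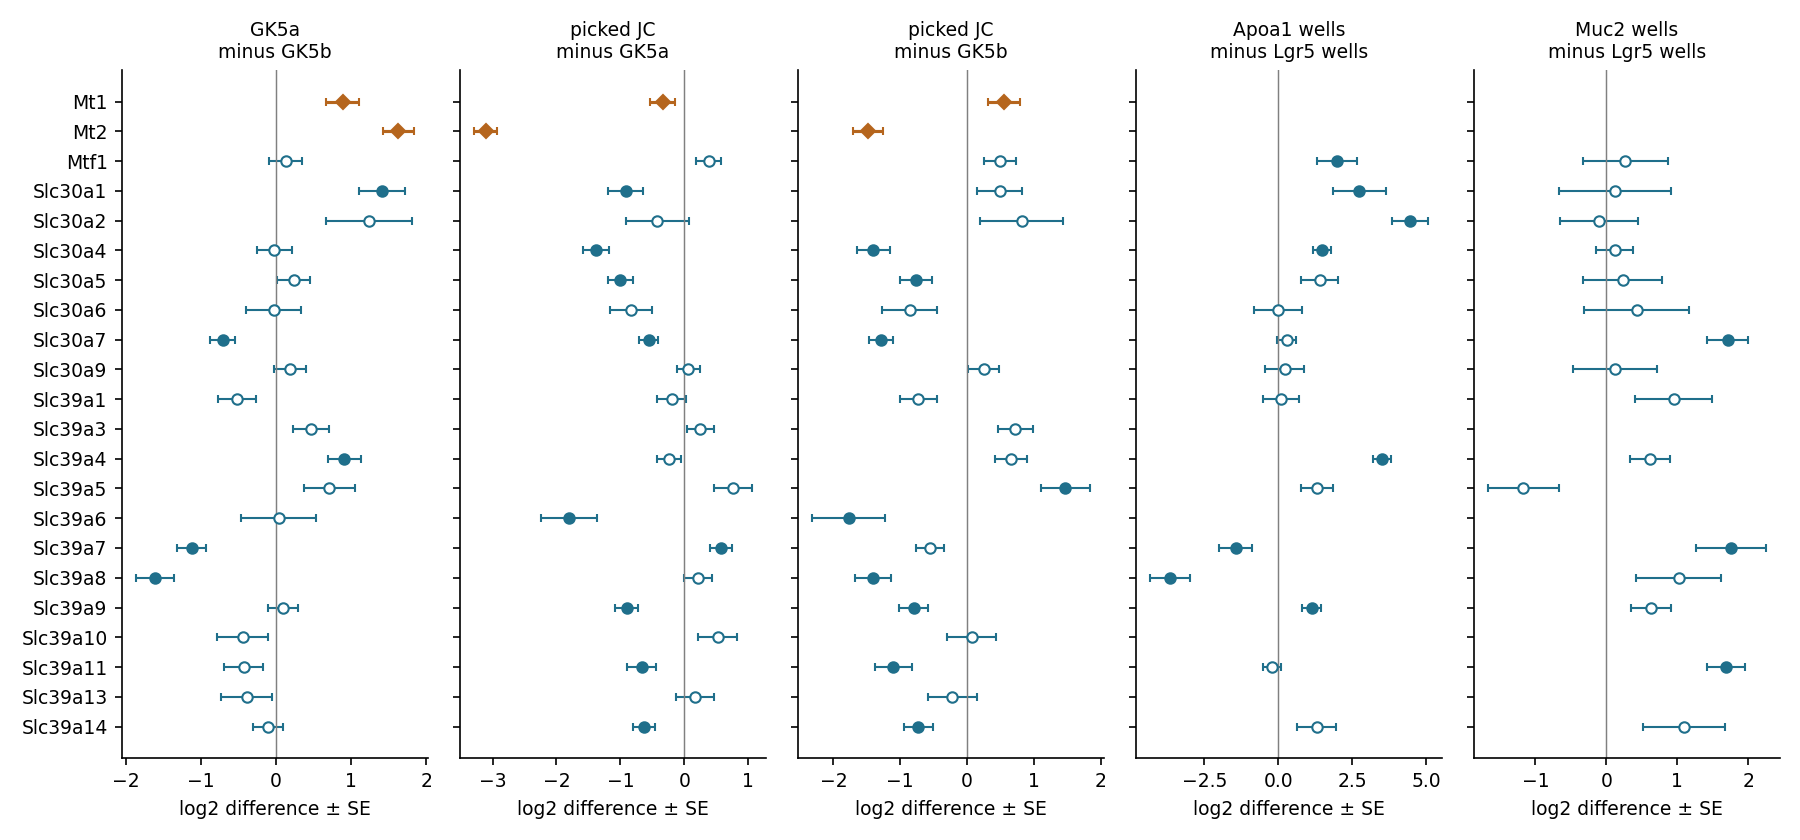
Log2 differences ± SE of Mt1 and Mt2 (diamonds, a description, in the plate panels only) and of the tested zinc genes (circles, filled where the adjusted p is under 0.05) in 3 comparisons of plates and 2 comparisons of well classes, each panel with its own horizontal axis. Slc30a1 and Slc39a4 lie right of 0 in GK5a minus GK5b plates, at 1.41 and 0.91, and in Apoa1 minus Lgr5 wells, at 2.73 and 3.50.

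Apoa1 wells carried far more of several zinc genes than Lgr5 wells. In class sums of the sorted plates, with plate as a block, 6 of 16 tested members were higher and 2 lower (50%, against 45.1% of all 7450 genes called, 16.3% higher and 28.7% lower), with a median log2 difference of 1.21 for the list and -0.39 over all genes. Slc39a4 was at 909 ± 138 CPM in Apoa1 wells and 78.5 ± 30.2 CPM in Lgr5 wells (SD, n = 5 and 7; log2 difference 3.50 ± 0.31, adjusted p = 7.61e-11 by limma). Slc30a2, a zinc loader of vesicles, was at 84.3 CPM in Apoa1 wells, 4.07 CPM in Lgr5 wells and 3.27 CPM in Muc2 wells (4.44 ± 0.61 against Lgr5 wells). The filter needed 5 class sums and there were 5 Apoa1 sums, so Slc30a2 may have passed it through the Apoa1 wells alone. Its call, counted among the 6 above, is therefore a description and not a test. Slc30a1 was at 119 ± 47.4 CPM in Apoa1 wells and 16.3 ± 8.93 CPM in Lgr5 wells (2.73 ± 0.89, adjusted p = 0.0122), and Mtf1 at 64.5 ± 23.3 and 16.0 ± 2.59 CPM (1.99 ± 0.67, adjusted p = 0.0154). The calls of Slc30a1 and Mtf1 did not hold under every alternative, with adjusted p up to 0.0568 for Slc30a1, without GK5a replicate 1, and 0.0709 for Mtf1, with class thresholds divided by 2. Slc39a8 was lower in Apoa1 wells (-3.67 ± 0.67, adjusted p = 3.74e-05). Slc30a4 (1.47) and Slc39a9 (1.12) were higher and Slc39a7 (-1.44) lower. Slc39a4 and Slc30a1 were also called higher in GK5a than in GK5b plates, and GK5a plates held more Apoa1 wells. The part of the makeup in those calls was not tested beyond the fit on Lgr5, Mki67 and unmarked wells. In that fit neither passed, with Slc39a4 at 0.51 (adjusted p = 0.399 by limma).

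In Muc2 wells 3 of 16 zinc genes were higher and none lower than in Lgr5 wells (18.8%, against 8.79% of all genes called, 7.07% higher and 1.72% lower), with a median of 0.53 for the list and -0.04 over all genes. They were Slc39a11 (log2 difference 1.69 ± 0.27, adjusted p = 2.26e-05 by limma), a Golgi transporter, Slc30a7 (1.71 ± 0.29, adjusted p = 5.93e-05) and Slc39a7 (1.76 ± 0.49, adjusted p = 0.0161). Slc39a7 passed in 7 of 11 alternatives, with an adjusted p up to 0.205 at class thresholds divided by 2, and Slc39a11 had an adjusted p of 0.286 after thinning, where by limma none of the 3 zinc genes tested was called (0 at an unadjusted p under 0.05). Slc30a7 and Slc39a7 were also lower in GK5a than in GK5b plates, and GK5b plates held more Muc2 wells; the part of the makeup in those calls was not tested beyond the fit on Lgr5, Mki67 and unmarked wells. Slc39a4 (0.62, adjusted p = 0.214), Slc30a1 (0.12, adjusted p = 0.979) and Mtf1 (0.27, adjusted p = 0.939) did not pass. With the thresholds for the classes multiplied by 2, the zinc genes called were 7 higher and 1 lower.

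Copper genes followed the groups in few members. Of 8 tested, 1 was higher in GK5a than in GK5b plates, Cox17 (log2 difference 0.82 ± 0.16, adjusted p = 0.00712 by limma), the chaperone that brings copper to cytochrome c oxidase (12.5% of the list, against 7.38% of all genes). The call was lost among Lgr5, Mki67 and unmarked wells (0.76, adjusted p = 0.0981), and by limma no copper gene passed there or without either GK5b replicate (1 at an unadjusted p under 0.05 in each). Atox1, the copper chaperone of the secretory pathway, was higher in picked JC plates, at 214 CPM in picked JC plates, 73.5 CPM in sorted GK5a plates and 83.3 CPM in sorted GK5b plates (1.53 ± 0.12, adjusted p = 2.67e-06, and 1.35 ± 0.16, adjusted p = 9.62e-05). The copper pump Atp7a (-1.34) and importer Slc31a1 (-0.41) were lower in picked JC than in sorted GK5a plates, so that 1 of 8 was higher and 2 lower (37.5%, against 35.7% of all genes). Slc31a1 passed in 9 of 18 alternatives and was at -0.11 among Lgr5, Mki67 and unmarked wells (adjusted p = 0.603). Against sorted GK5b, Cox17 (0.87) and Ccs (0.65), which loads copper into superoxide dismutase, were also higher, so that 3 of 8 were higher and none lower (37.5%, against 25.4%), of which Ccs was lost among Lgr5, Mki67 and unmarked wells (0.52, adjusted p = 0.154). With library totals 2 were higher and 2 lower. Apoa1 wells were higher than Lgr5 wells in Cox17 (1.20), Slc31a1 (2.13) and Atp7a (2.23), 3 of 7 tested (42.9%, against 45.1% of all genes). Atp7a passed in 3 of 11 alternatives (adjusted p up to 0.148), and Cox17 was at 0.47 after thinning (adjusted p = 0.337). Muc2 wells were higher in Cox17 (0.70), 1 of 7 (14.3%, against 8.79%), with an adjusted p of 0.0921 after thinning.

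Iron genes gave 1 call of 13 between GK5a and GK5b plates, Pcbp2 (-1.17), an iron chaperone, a share of 7.69% near the 7.38% of all genes. Without GK5b replicate 1 its adjusted p was 0.118, and by limma no iron gene passed without either GK5b replicate (2 without replicate 1 and 1 without replicate 2 at an unadjusted p under 0.05). Picked JC plates were higher in 2 and lower in 4 of 13 against sorted GK5a (46.2%, against 35.7% of all genes) and higher in 1 and lower in 2 against sorted GK5b (23.1%, against 25.4%). Against GK5a the counts were 1 higher and 7 lower with library totals and 2 higher and 2 lower with median of ratios. Heph, the ferroxidase of iron export, was at 20.8 CPM in picked JC plates, 76.3 CPM in sorted GK5a plates and 47.0 CPM in sorted GK5b plates (-1.91 ± 0.23, adjusted p = 7.4e-05 by limma, and -1.23 ± 0.29, adjusted p = 0.00872). Tfrc, the transferrin receptor, was higher in picked JC plates (0.53, adjusted p = 0.0101, and 0.66, adjusted p = 0.014), but passed neither with library totals against GK5a (adjusted p = 0.221) nor among Lgr5, Mki67 and unmarked wells against GK5b (0.27, adjusted p = 0.251). Heph against GK5b had an adjusted p of 0.113 without GK5b replicate 1. Apoa1 wells were higher than Lgr5 wells in 3 of 10, the ferritin chains Fth1 (1.08) and Ftl1 (0.49) and Heph (3.49), and lower in 3, Tfrc (-3.90), Pcbp1 (-0.77) and Pcbp2 (-2.42), 60% against 45.1% of all genes. After thinning, Fth1 (adjusted p = 0.114), Ftl1 (0.378) and Heph (0.0559) did not pass. Ftl1 (0.60) was the call in Muc2 wells, 1 of 10 (10%, against 8.79%).

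Antioxidant genes gave calls between picked and sorted plates. None of 24 tested was called between GK5a and GK5b plates by limma, with 6 at an unadjusted p under 0.05. Picked JC plates were higher in 6 and lower in 8 against sorted GK5a (58.3%, against 35.7% of all genes), which became 4 and 12 with library totals and 7 and 5 with median of ratios. Gstp1, a glutathione transferase (1.51), Gpx4, which reduces lipid peroxides (1.10), and Gss, glutathione synthetase (0.94), were higher, and mitochondrial Prdx3 (-1.13) lower. Against sorted GK5b 4 were higher, Gss (1.15), Gpx4 (1.16), Gpx1 (0.59) and Gstp1 (0.81), and 2 lower, Prdx3 (-0.78) and Txnrd1 (-0.65), 25% against 25.4% of all genes, with 2 higher and none lower when either GK5b replicate was left out, 2 and 5 with library totals and 5 and 1 with median of ratios. Gpx1 passed in 12 of 18 alternatives (adjusted p up to 0.119). In Apoa1 wells 9 of 24 were higher and 2 lower than in Lgr5 wells (45.8%, near the 45.1% of all genes), led by Gpx4 (2.12 ± 0.31, adjusted p = 1.47e-06 by limma), the sulfiredoxin Srxn1 (4.45 ± 0.80, adjusted p = 2.92e-05), Prdx4 (-3.38) and Prdx5 (2.76). In Muc2 wells Prdx6 (-0.87) was the 1 call (4.17%, against 8.79%), and it passed in 7 of 12 alternatives, with an adjusted p up to 0.803 after thinning. Across wells, Txn1, Prdx6 and Prdx1 had a mean r of 0.27, 0.26 and 0.25 with the pair, and Slc39a5 was highest of the zinc list with 0.22.

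Glucocorticoid-response genes were mixed. Between GK5a and GK5b plates, Sgk1, a kinase gene induced by steroids, was at 20 CPM in GK5a plates and 4.72 CPM in GK5b plates (1.82 ± 0.35, adjusted p = 0.0069 by limma), Cebpd was higher (1.00) and Hsd11b2, which inactivates glucocorticoids, was lower (-1.99), 3 of 15 (20%, against 7.38% of all genes). Among Lgr5, Mki67 and unmarked wells Sgk1 was at 0.93 (adjusted p = 0.498 by limma, the highest of 18 alternatives, from 0.00516) and Hsd11b2 at -0.60 (adjusted p = 0.718, the highest, from 0.00522). The part of the larger number of Apoa1 wells in GK5a plates in the Sgk1 call was not tested beyond this fit. Cebpd passed in 9 of 18 alternatives (adjusted p up to 0.371, without GK5b replicate 1). By limma no gene of the list passed among those wells or without GK5b replicate 1, with 3 at an unadjusted p under 0.05 in each. Picked JC plates had 4 higher and 2 lower against sorted GK5a (40%, against 35.7%; 2 and 3 with library totals), with Zfp36 (1.45), an early-response gene, and Fkbp5 (1.27) higher and the receptor gene Nr3c1 (-0.98) and Klf9 (-0.96) lower. Against sorted GK5b 5 were higher, led by Sgk1 (2.46 ± 0.38, adjusted p = 0.000558) and Zfp36 (1.29), with Cebpd (0.99), Fkbp5 (1.19) and Per1 (1.16), and 1 lower, Klf9 (-1.40), 40% against 25.4% of all genes. The counts were 3 higher and 3 lower with library totals, 2 higher and none lower without GK5b replicate 1, and 1 higher and 1 lower without GK5b replicate 2. Apoa1 wells were higher in Cdkn1a (3.96), Zfp36 (2.58) and Sgk1 (3.54) and lower in Ddit4 (-3.58) and Hsd11b2 (-2.13), 5 of 11 (45.5%, near the 45.1% of all genes), and Zfp36 had an adjusted p of 0.0549 after thinning. Muc2 wells were higher in Cdkn1a (2.00), Hsd11b2 (2.86) and Zfp36 (1.26), 3 of 11 (27.3%, against 8.79%), of which Cdkn1a and Zfp36 had adjusted p of 0.115 and 0.163 after thinning.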

How the data were processed

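CEL-seq2 libraries of 10 plates were read in pairs of 75 bases on a NextSeq500, per the labels' protocols. The authors used BWA 0.6.2-r126 and mm10, per the submitters' processing notes. Neither the counting software nor its use of strand is named in those notes or in the labels. As deposited, the values are transcript estimates per gene and well. Each was a whole number of barcodes (100.0% of values, tolerance 0.001) after undoing a correction for 4096 possible barcodes, which the values show and no header states. Because the estimates themselves are not whole, limma was used on log2(CPM + 1) and no count model.

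Spike-ins were left out and wells under 1000 endogenous transcripts dropped. Wells were summed by plate, or by class and plate (at least 5 wells), scaled by trimmed mean of M values, and fitted with limma 3.58.1 in R 4.3.3 (trend, Benjamini-Hochberg over all genes tested, 0.05). Genes needed 10 transcripts at the median size in 2 plates (5 class sums) and 15 in all. With 5 Apoa1 class sums, a gene low in other classes, such as Slc30a2, Sgk1 or Srxn1, could pass the filter through these sums alone. In class fits the class markers, Mt1 and Mt2 were not tested, and plate was a block. Plates are the replicates. Depth differed between groups, so shares of wells were also given after thinning to 2000 transcripts. Wells are numbered alike in every plate and carry no barcode that could show a shared cell. No doublet caller was run; wells past more than 1 class threshold were kept apart as mixed. Counting limits cover counting error only.

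The members, gene lists and classes were chosen with earlier results of these data known. Named genes were Mt1, Mt2 and the class markers, Mtf1, Slc30a1 and Slc39a4, up to 4 called genes with the smallest adjusted p per list and comparison (others named beyond these were chosen after their values were seen), and the 10 highest and 5 lowest by correlation with the pair. Fits were tested on simulated data with known changes. Alternatives changed scaling, pseudocount, filter, wells, class thresholds and plates. Sequences are from GENCODE vM21 transcripts and RefSeq promoter windows on GRCm38.p6.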

Additional observations from a re-analysis of the deposited data

Results flagged for a closer look

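In sorted plates 37 sets of values of Mt1 and Mt2 were examined for a plate far from the others. The sets took in GK5a plates, and for the ratios of Muc2 over Lgr5 wells also GK5b plates. Of the 37 sets 2 stood out, near the 1 in 20 that chance gives, and both were of GK5a plates. In wells with Chga or Chgb at 0.1% or more, Mt2 was at 153 CPM in 1 plate, and the nearest of the other 4 was at 20.3 CPM; the gap was 0.867 of the range. These class sums hold 37 wells and 5 transcripts of Mt2 over 5 plates, so the value rests on single transcripts. Over the Lgr5, Mki67 and unmarked wells, Mt2 was at 340 CPM in 1 plate, with the nearest at 320 CPM and a gap of 0.714 of the range; the 5 plates span 312 to 340 CPM, so the plate differs little in size.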

How the results depend on the processing

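The Mt1 and Mt2 differences between groups of plates kept their direction under every alternative run, although the "Mt1 log2 difference, picked JC minus GK5a" was -0.62 with library totals and -0.05 with the mean of CPM per well. Mt2 in picked JC minus GK5a was -3.38 with library totals and -2.56 with the mean of CPM per well, and in picked JC minus GK5b -1.13 with the mean of CPM per well and -1.94 in progenitor (Lgr5, Mki67 and unmarked) wells. Genes called in GK5a minus GK5b were 796, and 496 with no filter, 527 with the mean of CPM per well and 29 in progenitor wells; in picked JC minus GK5b 2733, and 1691 in progenitor wells. Class calls were 3359 for Apoa1 and 655 for Muc2 wells, 866 and 233 after thinning, and 1305 for Muc2 wells at thresholds multiplied by 2. Scaling shifted the calls in picked JC plates: 40.4% were higher against GK5a (20.6% with library totals, median gene -0.40; 50.7% with median of ratios) and 39.1% against GK5b (22.9%, median gene -0.32; 50.5%). After thinning, the Mt1 ratio of Apoa1 wells was 1.00 and the r of Mt1 with Mt2 0.27. The Mt2 ratio of Muc2 wells was then 1.14 (SD 2.62), with few Mt2 transcripts left in sorted GK5b Lgr5 wells. With class thresholds divided by 2 the Mt2 ratio of Apoa1 wells was 0.46. The causes of these shifts were not tested. No ratio of Defa wells could be had, since too few wells passed that threshold alone.

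Leaving out each plate in turn gave 38 (without GK5b replicate 1) to 1093 genes called for GK5a minus GK5b, 3185 to 3769 for picked JC minus GK5a, 859 (without GK5b replicate 1) to 2991 for picked JC minus GK5b, 2587 to 3193 for Apoa1 and 547 to 629 for Muc2 wells. With 1 GK5b plate left, it is assumed to vary like the other groups. Mt1 gave 0.75 to 1.06, -0.46 to -0.26 and 0.44 to 0.72, and Mt2 1.42 to 1.85, -3.30 to -2.87 and -1.67 to -1.24, in these 3 comparisons. Ratios over Lgr5 wells were -0.06 to 0.41 (Mt1) and -0.73 to -0.26 (Mt2) in Apoa1 wells, -0.71 to -0.41 and -0.67 to -0.31 in Muc2 wells, and r was 0.44 to 0.49. Of 78 calls on named genes, 18 were lost in progenitor wells and 23 without GK5b replicate 1. Between the groups of plates no paired analysis was possible, because no label links a plate of a group to a plate of another group.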
